A study of Mus musculus with 6 samples.

Results

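The genes described here were Clu, Ly6a, Ly6d, Anxa1, Anxa3, Anxa10, Sprr1a, Msln, Tm4sf4 and Il1rn, 10 of the 32285 features of the deposited count matrices. They were chosen by symbol with earlier results of these data known, and each symbol matched 1 row in all 6 matrices. Genes of this kind are known as regenerative or fetal-like genes: they are active in the immature epithelium of the fetal gut, low in the resting adult crypt, and switched on again for a time when the adult epithelium is injured and rebuilt. Ly6a (the surface antigen Sca-1) is a common label of such epithelium, and Clu (clusterin, a secreted chaperone) labels a rare cell state that appears after damage to crypts. Freshly seeded organoids pass through a similar state, in which the transcription co-activator YAP and its TEAD partners are active, before they form crypts.

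The study asked how NHE1, the plasma membrane sodium-proton exchanger, affects cell fate in small intestinal organoids grown from crypts of adult mice aged 10 weeks. Wild-type (WT) organoids were grown with the solvent DMSO (-EIPA, 2 libraries) or with 5 µM EIPA, an amiloride derivative that inhibits NHE1 (+EIPA, 2 libraries). An NHE1 CRISPR line, selected with puromycin as single clones of WT organoids carrying Cas9-GFP under a doxycycline-inducible promoter and a guide to the first exon of NHE1, was profiled uninduced (-Dox, 1 library) and after 2 µg/mL doxycycline (+Dox, 1 library). All libraries were from day 3 of culture, and live cells were sorted before capture, with GFP-positive cells taken in +Dox. The replicate numbers 1 and 2 are called experiment 1 and experiment 2.

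After barcodes with fewer than 1000 genes or at least 20% mitochondrial unique molecular identifiers (UMIs, counts of captured RNA molecules) were left out, 87954 of 123544 barcodes remained, 12083 to 18211 per library, with a median of 11477.5 to 17020 UMIs per cell. Levels are given as CPM, the count of a gene summed over the cells of a library per 1000000 UMIs of that sum. Because the libraries read the 3′ ends of RNA, CPM were not divided by gene length. Any pair of libraries shared 33 to 78 cell barcodes. The summed level of leukocyte, fibroblast and endothelial markers was at most 0.917 CPM in any library, and that of 4 mesothelial markers, of interest because Msln is also a mesothelial gene, was 5.74 to 20.9 CPM. Upk3b and Upk1b made up nearly all of the mesothelial sum, which was highest in -Dox, where Msln was lowest. Markers of gastric epithelium summed to 3.22 and 7.91 CPM in -EIPA 1 and 2, 2.88 and 21.3 in +EIPA 1 and 2, 0.619 in -Dox and 2.92 in +Dox. The highest value fell in the library with the highest Clu, where Tff1 (17.8 CPM) and Tff2 (2.52 CPM) made up most of it and Muc5ac had 0 counts. The part of these markers in the results was not tested.

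On GRCm38 the members lie on 8 chromosomes, with both Ly6 genes on chromosome 15 and Sprr1a and Tm4sf4 on chromosome 3. By the GENCODE vM21 gene models, Clu spans chr14:65968483-65981547 on the plus strand, Ly6a chr15:74994877-74998031 and Ly6d chr15:74762056-74763620, both on the minus strand. The annexin genes span chr19:20373428-20390944 (Anxa1, minus), chr5:96793339-96845966 (Anxa3, plus) and chr8:62057042-62123150 (Anxa10, minus). Sprr1a spans chr3:92483952-92485895 (minus), Msln chr17:25748613-25754378 (minus), Tm4sf4 chr3:57425314-57441677 (plus) and Il1rn chr2:24336853-24351494 (plus). The RefSeq promoter sequences of GRCm38.p6 held 7 transcription starts of 5 members, namely Anxa1, Anxa10, Sprr1a, Tm4sf4 and Il1rn. The 250 bases before each start were searched on both strands for TGANTCA, the letters that AP-1 factors bind (the same on either strand), and for GGAATG or CATTCC, the letters that TEAD factors bind. Of 32851 promoters in that set, 6.75% held the AP-1 letters, 12.6% the TEAD letters and 0.947% both. The 3 promoters with AP-1 letters are shown so that these letters can be seen in place, 5′ to 3′ on the strand of the gene, with the AP-1 letters in capitals.
Anxa10: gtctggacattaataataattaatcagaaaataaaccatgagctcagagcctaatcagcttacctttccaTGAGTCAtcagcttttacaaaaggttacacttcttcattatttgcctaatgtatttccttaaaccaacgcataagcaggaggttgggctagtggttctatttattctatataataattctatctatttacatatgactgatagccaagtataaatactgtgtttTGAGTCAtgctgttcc
Sprr1a: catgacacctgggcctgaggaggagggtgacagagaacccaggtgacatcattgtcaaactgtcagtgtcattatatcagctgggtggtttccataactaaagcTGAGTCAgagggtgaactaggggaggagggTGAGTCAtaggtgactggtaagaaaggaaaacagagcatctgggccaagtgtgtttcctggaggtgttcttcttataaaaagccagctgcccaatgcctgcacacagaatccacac
Il1rn: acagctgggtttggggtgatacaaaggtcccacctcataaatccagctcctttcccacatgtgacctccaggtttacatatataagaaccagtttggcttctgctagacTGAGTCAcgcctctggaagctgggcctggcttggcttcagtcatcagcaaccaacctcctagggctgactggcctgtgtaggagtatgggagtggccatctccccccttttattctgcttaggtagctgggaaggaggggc
The windows are chr8:62123194-62123443 (minus), chr3:92485882-92486131 (minus) and chr2:24336610-24336859 (plus). Counted back from the start, the AP-1 letters begin at −180 and −16 in Anxa10, at −146 and −116 in Sprr1a and at −141 in Il1rn. TEAD letters begin at −236 in Anxa1 and at −24 before another Il1rn start, and Tm4sf4 held neither set. Such matches describe letters in these windows and were not tested as sites of binding.

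All 10 genes were higher with EIPA than without it in both experiments, and higher in +Dox than in -Dox, as were 21.2% of 11800 genes and 43.2% of 11590 genes. The EIPA fold changes of CPM had a median over the members of 4.17 in experiment 1 and 4.98 in experiment 2, and the Dox fold changes a median of 7.92. Every member was at least 2-fold higher in each of the 3 contrasts, as were 100 of the 11339 genes compared (0.882%). For EIPA alone the share of genes at least 2-fold higher in both experiments was 1.29% of 11800, and for Dox it was 4.03% of 11590. The members were chosen with earlier results of these data known, so their counts beside these shares are descriptions without a test. The median gene changed by −0.07, −0.12 and −0.05 on the log2 scale in the same contrasts.

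**Figure D1:**
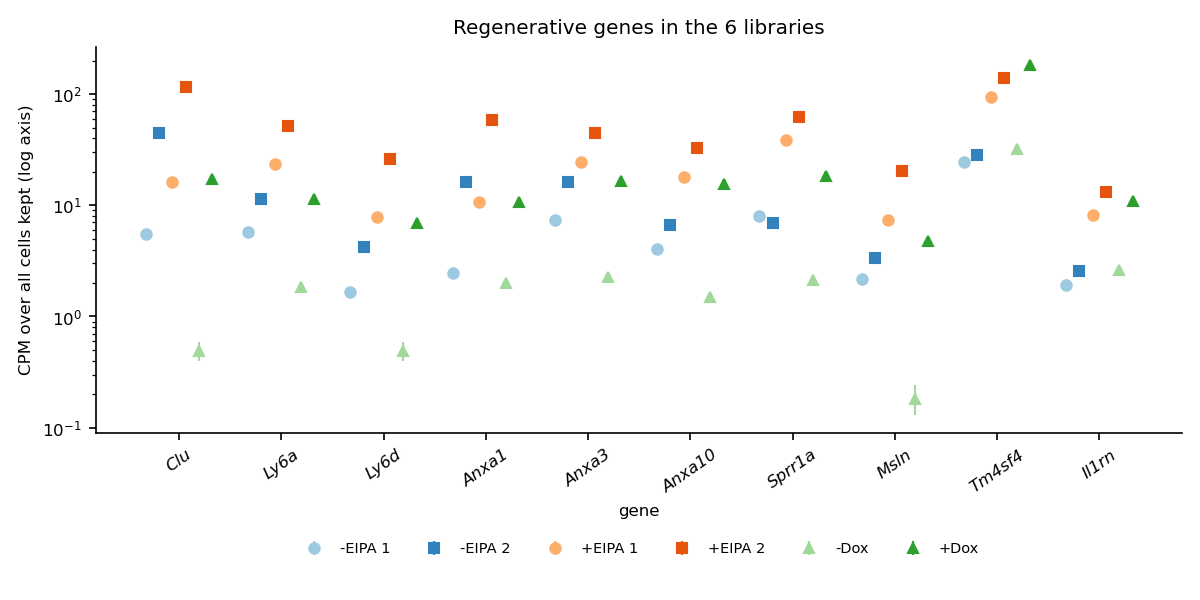
Level of each of the 10 genes in each of the 6 libraries, in CPM of summed counts on a log axis; error bars are exact 95% Poisson intervals, which cover counting error only. The +EIPA points lie above the -EIPA point of the same experiment for every gene, and for Clu the -EIPA 2 point (44.3 CPM) lies above the +EIPA 1 point (16.03 CPM).

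Of the secreted proteins, Clu stood at 5.55 and 44.3 CPM in -EIPA 1 and 2, at 16.03 and 116 CPM in +EIPA 1 and 2, at 0.486 CPM in -Dox and at 17.1 CPM in +Dox. Its level was higher in +EIPA within each experiment, but the groups overlapped, since -EIPA 2 exceeded +EIPA 1. The fold change was 2.89 in experiment 1 (95% counting interval 2.68 to 3.12) and 2.61 in experiment 2 (2.55 to 2.67), while the 2 control libraries of one condition, -EIPA 2 and -EIPA 1, differed 7.99-fold. Il1rn, which encodes the secreted antagonist of the interleukin-1 receptor, stood at 1.94 and 2.59 CPM in -EIPA 1 and 2, at 8.24 and 13.2 in +EIPA 1 and 2, at 2.62 in -Dox and at 11.01 in +Dox. Its -EIPA and +EIPA libraries did not overlap, and its folds were 4.26 and 5.09 with EIPA and 4.20 with Dox.

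Among the surface proteins, Ly6a stood at 5.73 and 11.5 CPM in -EIPA 1 and 2, 23.4 and 51.9 in +EIPA 1 and 2, 1.86 in -Dox and 11.4 in +Dox. Ly6d, a lipid-anchored relative of Ly6a, stood at 1.65 and 4.23 CPM, then 7.86 and 25.8 CPM, then 0.486 and 6.99 CPM in the same order of libraries. Reads of Ly6 genes may be split between near-identical family members, so both values are uncertain to that extent. Msln, which encodes the surface glycoprotein mesothelin, stood at 2.18 and 3.34 CPM in -EIPA, 7.35 and 20.3 CPM in +EIPA, 0.181 CPM in -Dox and 4.77 CPM in +Dox. Tm4sf4, a membrane protein of the four-transmembrane L6 family, reached the highest level of any member, at 24.4 and 28.0 CPM in -EIPA, 94.5 and 141 CPM in +EIPA, 31.9 CPM in -Dox and 182 CPM in +Dox. For these 4 genes every +EIPA library lay above every -EIPA library. Their EIPA folds in experiments 1 and 2 were 4.08 and 4.52 for Ly6a, 4.78 and 6.11 for Ly6d, 3.37 and 6.07 for Msln and 3.88 and 5.02 for Tm4sf4.

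The annexins bind phospholipid membranes in the presence of calcium, and Anxa1 is known for limiting inflammation. Anxa1 stood at 2.48 and 16.3 CPM in -EIPA 1 and 2, 10.8 and 58.0 in +EIPA 1 and 2, 2.01 in -Dox and 10.6 in +Dox. Like Clu it overlapped between the groups, with -EIPA 2 above +EIPA 1, and it was 4.34-fold and 3.55-fold higher within experiments 1 and 2. Anxa3 stood at 7.38 and 16.2 CPM in -EIPA, 24.7 and 45.1 CPM in +EIPA, 2.27 CPM in -Dox and 16.6 CPM in +Dox. Anxa10 stood at 4.04 and 6.65 CPM in -EIPA, 17.8 and 32.9 CPM in +EIPA, 1.50 CPM in -Dox and 15.5 CPM in +Dox. Neither of these overlapped, with EIPA folds of 3.34 and 2.78 for Anxa3 and 4.42 and 4.95 for Anxa10. Sprr1a, a precursor of the cornified envelope of stratified epithelia, stood at 8.08 and 6.89 CPM in -EIPA, 38.5 and 61.6 CPM in +EIPA, 2.14 CPM in -Dox and 18.3 CPM in +Dox. It did not overlap and was the only member lower in -EIPA 2 than in -EIPA 1 (0.853-fold), and its EIPA folds were 4.76 and 8.94.

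In all, 8 of the 10 members had both +EIPA libraries above both -EIPA libraries, the exceptions being Clu and Anxa1, against 12.5% of 11800 genes. Between the 2 control libraries, 5 of 10 members were at least 2-fold higher in -EIPA 2, against 1.31% of 11631 genes.

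The EIPA difference was tested with edgeR's quasi-likelihood test on counts summed per library, with Benjamini-Hochberg adjustment over all genes tested. The fit without pairing called 0 of 15890 genes (0.0%) at an adjusted p of 0.05, and 1601 genes (10.1%) had an unadjusted p below 0.05, 8 of the 10 members among them. In that fit Clu had a log2 value of 1.50, with a standard error (SE) of 1.31 and an adjusted p of 0.788, and Anxa1 had 1.96 (SE 1.18, adjusted p = 0.684). In all edgeR fits the SE was derived from the log2 value and the F statistic of the test, so it shares the limits of the p-value. Without the library +EIPA 2 the value of Clu was −0.60 and that of Anxa1 0.23, and without -EIPA 2 they were 3.69 and 3.91. For the other 8 members the value lay between 1.65 (Anxa3, SE 0.50) and 2.83 (Sprr1a, SE 0.28), with adjusted p from 0.239 to 0.396. Their values also moved with 1 library left out, most for Ly6d, from 1.46 without +EIPA 2 to 3.47 without -EIPA 2, and stayed positive. With the experiment as a block, edgeR called 839 genes (5.28%), 710 of them higher (4.47%), and all 10 members were called higher. In the blocked fit the log2 fold change of Clu was 1.54 (SE 0.05, adjusted p = 0.00377), that of Sprr1a 2.80 (SE 0.23, adjusted p = 0.0195) and that of Tm4sf4 2.23 (SE 0.11, adjusted p = 0.00708). Msln had the highest adjusted p of the members, 0.0210, and Ly6a and Anxa10 the lowest, 0.00290. When libraries were scaled by their size and not by TMM, the blocked fit called 1651 genes (10.4%), 876 higher and 775 lower where TMM gave 710 and 129, and all 10 members. With the block and the highest doublet scores left out, 968 genes (6.22%) and all 10 members were called, with Ly6d at 3.78 where it had 2.54 with all cells, and Msln at 3.27 where it had 2.30. Without the block, DESeq2 called 614 genes (3.86%) and 5 members, and edgeR without a filter on low counts 198 genes (0.866%) and 4 members. The blocked fit leaves 1 residual degree of freedom per gene, so its small p-values rest on the spread shared across genes, and an exact permutation test of 2 libraries against 2 could not go below p = 0.333. The study's methods give the -EIPA and +EIPA libraries as coming from 2 separate preparations, while the labels do not say whether these were separate mice, so p-values measure the spread between these libraries.

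**Figure D2:**
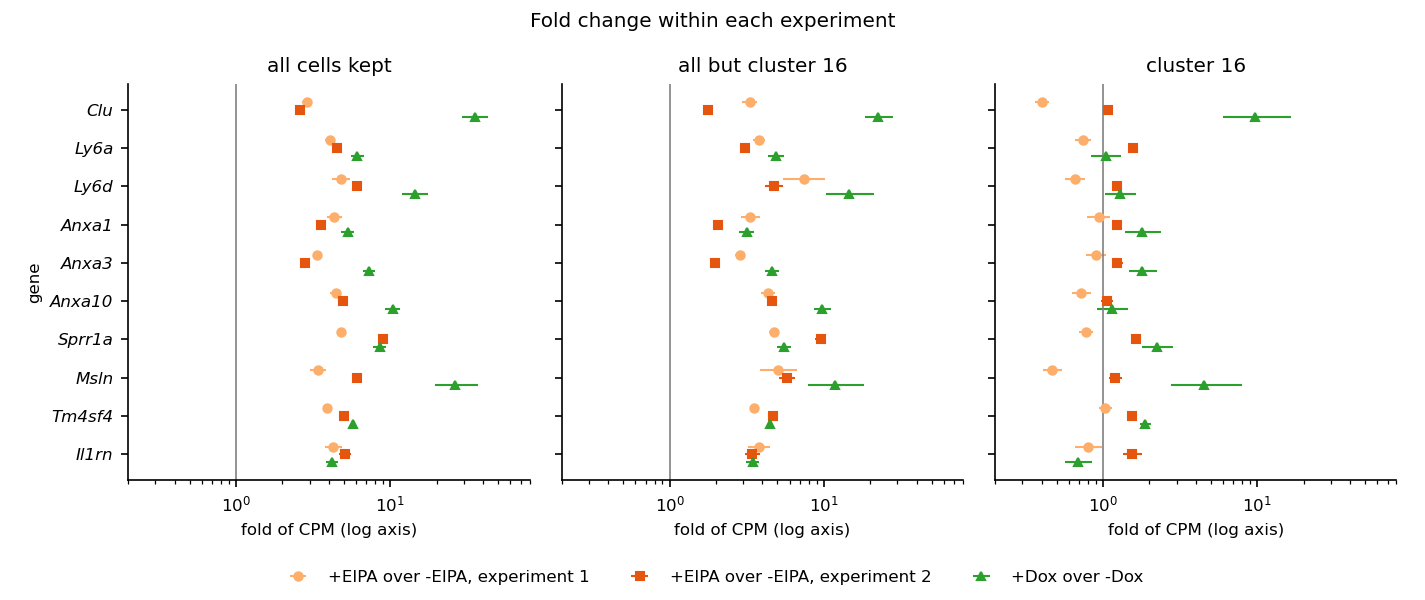
Fold change of each gene within experiment 1, within experiment 2 and between +Dox and -Dox, on a log axis, for all cells, for cluster 16 and for all cells but cluster 16; bars are 95% counting intervals. Over all cells every point lies above 1, while inside cluster 16 the experiment 1 points lie below 1 for 9 of 10 genes.

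The Dox contrast had 1 library per condition and so no test. Clu was 35.2-fold higher in +Dox (95% counting interval 29.2 to 42.8), followed by Msln at 26.4-fold, Ly6d at 14.4-fold and Anxa10 at 10.4-fold. With the highest doublet scores left out, Msln and not Clu had the highest fold, 33.8. The other folds were 8.54 for Sprr1a, 7.31 for Anxa3, 6.12 for Ly6a, 5.71 for Tm4sf4, 5.29 for Anxa1 and 4.20 for Il1rn. The uninduced CRISPR library held less of most members than the WT control library -EIPA 1: 8 of 10 were lower (41.3% of 11697 genes were), and 7 were at least 2-fold lower (3.86%). The exceptions were Tm4sf4 (31.9 against 24.4 CPM) and Il1rn (2.62 against 1.94 CPM). The CRISPR line and its culture cannot be told apart here, and in +Dox induction cannot be told apart from the GFP sort.

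Cells were clustered on genes other than the members, the other regenerative or fetal-like genes and the YAP/TEAD targets. Genes of the remaining related lists, such as other annexins and Ly6 genes, were not left out. Of the 19 clusters, numbered from 0, cluster 16 had the highest pooled level of every member. It held 886 cells, 32 and 83 in -EIPA 1 and 2, 192 and 390 in +EIPA 1 and 2, 30 in -Dox and 159 in +Dox. Its leading genes were Lgals3, Clu, Sprr1a, Anxa1, S100a6, Ly6d, Ly6a, Anxa3, Tm4sf4 and F3, and it was left unnamed because none of the cell type markers led it. With neighbours not balanced over libraries, the cluster led by members held 1523 cells, 94 and 109 in -EIPA 1 and 2, 354 and 583 in +EIPA 1 and 2, 61 in -Dox and 322 in +Dox. The cells of cluster 16 had a median UMI count 1.31 times that of their library, and cells with the highest 10% of doublet scores made up from 16.4% of the cluster (+EIPA 2) to 65.6% (-EIPA 1). Inside cluster 16 Clu reached 1025 and 1398 CPM in -EIPA 1 and 2, 413 and 1498 CPM in +EIPA 1 and 2, 46.1 CPM in -Dox and 447 CPM in +Dox. Sprr1a there reached 999.7 and 581 CPM in -EIPA, 776 and 949 CPM in +EIPA, 212 CPM in -Dox and 477 CPM in +Dox. Both were thus high in the few control cells of the cluster as well, and the -Dox cells had the lowest level of either gene.

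**Figure D3:**
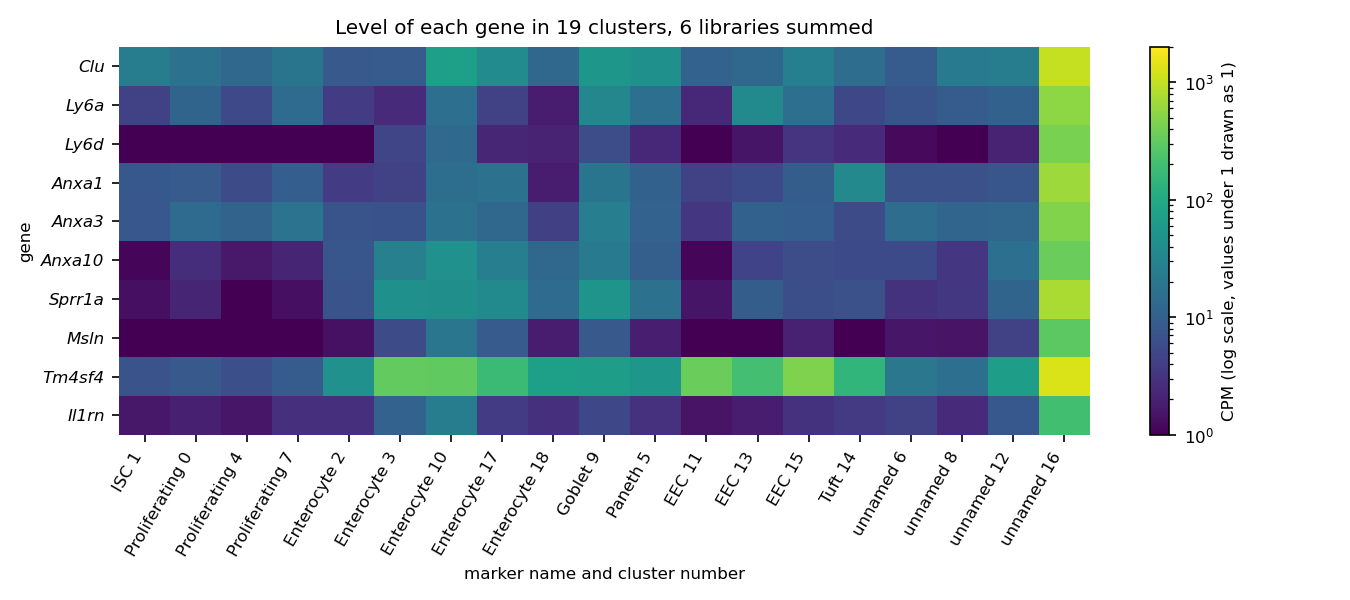
Level of each gene in each cluster, pooled over the 6 libraries, in CPM on a log colour scale, with clusters labelled by number and marker name. Cluster 16 holds the highest value in every row, 658 CPM for Anxa1 against 35.7 CPM in the next cluster, while Tm4sf4 also reaches 461 and 354 CPM in 2 enteroendocrine-like (EEC-like) clusters and 318 and 309.5 CPM in 2 enterocyte-like clusters.

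The members differed in how far their RNA was confined to that cluster. Cluster 16 held 69.0% to 82.0% of the Ly6d counts of each library, and 38.1% (-Dox) to 81.5% (-EIPA 1) of the Msln counts. Of Tm4sf4 it held 7.72% (-Dox) to 28.4% (+Dox), and of Clu 53.6% in -EIPA 1, 22.2% in -EIPA 2, 47.8% and 48.6% in +EIPA 1 and 2, 15.0% in -Dox and 46.4% in +Dox. Outside it, Tm4sf4 was highest in EEC-like clusters 15 (461 CPM pooled) and 11 (354 CPM) and in enterocyte-like clusters 3 (318 CPM) and 10 (309.5 CPM). Anxa1 came next in tuft-like cluster 14 (35.7 CPM), Ly6a in EEC-like cluster 13 (37.5 CPM) and Goblet-like cluster 9 (33.9 CPM), and Sprr1a in Goblet-like cluster 9 (50.7 CPM). Clu was spread over enterocyte-like cluster 10 (73.0 CPM), Goblet-like cluster 9 (55.9 CPM) and Paneth-like cluster 5 (44.8 CPM). The cells of cluster 10 were shallow, with a median UMI count 0.330 times that of their library, and Gm26917 led the cluster. The part of this low depth in the levels of cluster 10 was not tested. These orders are of levels pooled over the 6 libraries and turned in single libraries. In +EIPA 2 Anxa1 stood at 66.7 CPM in enterocyte-like cluster 10 and 53.1 CPM in tuft-like cluster 14, Sprr1a at 146 CPM in cluster 10 and 117 CPM in cluster 9, and Ly6a at 78.6 CPM in cluster 9 and 52.8 CPM in cluster 13. Tm4sf4 stood there at 595 CPM in cluster 10 and 460 CPM in cluster 15, and in -EIPA 2 Clu stood at 83.4 CPM in cluster 9 and 67.9 CPM in cluster 10.

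Within cluster 16 every member's fold was smaller than over all cells, in both EIPA experiments and with Dox. In experiment 1, only Tm4sf4 was higher in +EIPA (1.03-fold; 49.6% of 12529 genes were higher), and Clu stood at 0.403 of its -EIPA level. In experiment 2 all 10 were higher (42.3% of genes), by 1.06-fold (Anxa10) to 1.63-fold (Sprr1a). For 6 members the counting intervals lay below 1 in experiment 1 and above 1 in experiment 2 (0.822% of genes). That share covers all genes from 1 CPM upwards, and genes with fewer counts than the members have wider intervals. It is therefore not a like background for the members. No member was at least 2-fold higher in both experiments (2.42% of genes). With Dox 9 of 10 were higher (43.0% of 11843 genes), Clu by 9.69-fold and Msln by 4.52-fold. In the cells outside cluster 16, all 10 were higher in both experiments (20.3% of genes) and 8 were at least 2-fold higher in both (0.995% of 11756 genes). The exceptions there were Clu, at 3.30-fold and 1.78-fold, and Anxa3, at 2.87-fold and 1.98-fold. With Dox all 10 were at least 2-fold higher there (3.92% of 11576 genes). Summed counts do not tell more RNA per cell from more cells of a kind. This holds inside cluster 16 as well, where cells with a high doublet score made up 65.6% in -EIPA 1 against 29.7% in +EIPA 1 and 45.8% in -EIPA 2 against 16.4% in +EIPA 2, and their part in the folds was not tested. In the barcodes outside the limits on genes and mitochondrial UMIs, all 10 were higher in both experiments too (13.6% of 12453 genes). With the block and without cluster 16, edgeR called 328 genes (2.07%) and 9 of the 10 members. Clu was the member not called, with an adjusted p of 0.0620 and a log2 value of 1.30 (SE 0.20).

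In enterocyte-like cells, the absorptive class, edgeR without the block called 0 of 12818 genes (0.0%), with 2236 (17.4%) at an unadjusted p below 0.05. This class too was made up differently in the 2 groups, since cluster 3 held 769 of its 2759 and 669 of its 2656 cells in -EIPA 1 and 2 but 1240 of 3314 and 1452 of 3251 in +EIPA 1 and 2. Anxa10, for example, had a pooled level of 27.8 CPM in cluster 3 and 7.54 CPM in cluster 2, another cluster of the class, and the part of the makeup in the changes was not tested. Il1rn had the lowest p of all genes there, with a log2 value of 2.19 (SE 0.16) at an adjusted p of 0.0657, and Tm4sf4 had 2.71 (SE 0.37, adjusted p = 0.105). Tm4sf4 in these cells stood at 63.0 and 37.1 CPM in -EIPA 1 and 2, 219 and 376 CPM in +EIPA 1 and 2, 47.5 CPM in -Dox and 274 CPM in +Dox. Clu stood at 1.37 and 18.4 CPM in -EIPA, 6.57 and 58.3 CPM in +EIPA, 0.246 CPM in -Dox and 2.83 CPM in +Dox, and again overlapped between the groups. With the block 1344 genes were called (10.5%), 964 of them higher (7.52%), and all 10 members were among those, with log2 fold changes from 1.34 (Anxa3) to 2.98 (Ly6d). Scaled by library size, the blocked fit called 1532 genes (12.0%), 607 higher and 925 lower where TMM gave 964 and 380, and with doublet scores limited 1793 (14.4%), with all 10 members in each. Without the block, DESeq2 called 583 genes (4.55%) and 5 members, edgeR without the filter 1307 (6.77%) and all 10, and edgeR with neighbours not balanced over libraries 122 (0.967%) and 4.

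In crypt-like cells, which join the intestinal stem cell (ISC)-like and proliferating cells, the fit without the block called 0 of 14005 genes (0.0%), with 600 (4.28%) at an unadjusted p below 0.05. The class was made up differently in the 2 groups, since its proliferating cluster 4 held 1532 and 2420 cells in -EIPA 1 and 2 and 924 and 469 in +EIPA 1 and 2. Without balanced neighbours, an ISC-like cluster held 212 and 76 cells in -EIPA against 1795 and 2486 in +EIPA, and another 705 and 1493 against 126 and 55, and the part of this makeup in the changes within the class was not tested. With the block edgeR called 469 genes (3.35%), 295 of them higher (2.11%), and 9 of 10 members. Sprr1a changed by 2.69 there (SE 0.16, adjusted p = 0.000638) and Clu, the exception, by 0.94 (SE 0.21, adjusted p = 0.0721). Scaled by library size, the blocked fit called 1062 genes (7.58%), 340 higher and 722 lower where TMM gave 295 and 174, and with doublet scores limited 836 (6.03%), with all 10 members in each. Without the block, DESeq2 called 111 genes (0.793%) and edgeR without the filter 71 (0.346%), each with 2 members. Whether the EIPA change differs between enterocyte-like and crypt-like cells was not tested.

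Members at least 2-fold higher in both experiments numbered 9 of 10 in enterocyte-like cells (1.05% of genes), 9 in proliferating cells (0.424%), 8 in Goblet/Paneth-like cells (0.677%) and 7 in ISC-like cells (0.293%). They numbered 3 in tuft-like cells (1.55%) and 2 in EEC-like cells (0.801%). A gene was counted when any WT library reached 1 CPM. In a -EIPA library, 5 of the 10 members reached it in ISC-like cells and 7 in proliferating cells. It was reached there by 8 in tuft-like, 9 in EEC-like and all 10 in enterocyte-like and Goblet/Paneth-like cells. The remaining members passed only through the +EIPA libraries, so no conclusion is drawn from their folds. In EEC-like cells, the hormone-producing class, Tm4sf4 was high in every library, at 240 and 302 CPM in -EIPA 1 and 2, 259 and 352 CPM in +EIPA 1 and 2, 362 CPM in -Dox and 496 CPM in +Dox. The -EIPA and +EIPA libraries overlapped there, unlike in enterocyte-like cells.

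To count cells, each cell was thinned to 3000 UMIs and 3290 shallower cells were left out (267 to 906 per library). A Clu UMI was then seen in 0.784% of cells in -EIPA 1 (95% exact binomial interval 0.635 to 0.958), 7.71% in -EIPA 2 (7.32 to 8.12), 2.64% in +EIPA 1 (2.37 to 2.93) and 12.4% in +EIPA 2 (11.8 to 12.9). The share was 0.143% in -Dox (0.0915 to 0.212) and 2.06% in +Dox (1.81 to 2.33). It was higher with EIPA within both experiments, 3.37-fold in experiment 1 and 1.60-fold in experiment 2 (2.48 ± 1.25, mean ± SD, n = 2 experiments), and -EIPA 2 again lay above +EIPA 1. Without thinning the shares were 2.47% and 19.3% in -EIPA 1 and 2, 7.40% and 31.4% in +EIPA 1 and 2, 0.438% in -Dox and 6.06% in +Dox. These intervals cover counting error only.

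**Figure D4:**
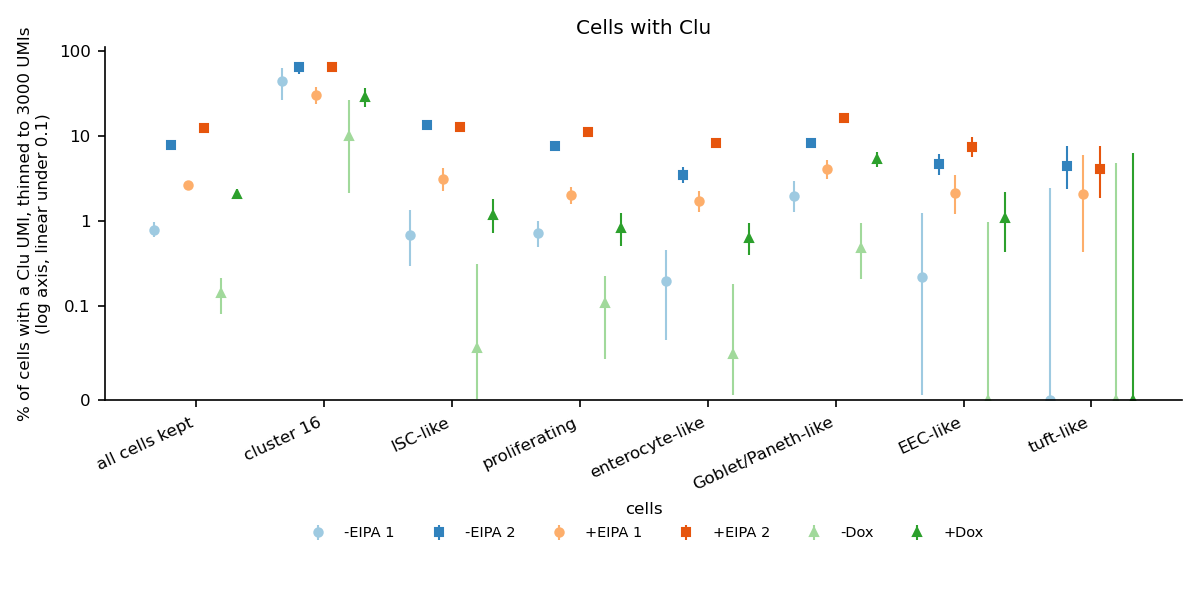
Percent of cells with at least 1 Clu UMI after thinning to 3000 UMIs, by cell class and library; error bars are exact 95% binomial intervals. In experiment 2 the share is above 3% in every class of both libraries, and in -Dox it is at most 0.481% outside cluster 16.

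In -EIPA 2 the Clu-positive cells were found in every class, at 13.1% of ISC-like, 8.23% of Goblet/Paneth-like, 7.60% of proliferating, 4.62% of EEC-like, 4.42% of tuft-like and 3.46% of enterocyte-like cells. In +EIPA 2 the shares were 12.5% of ISC-like, 16.1% of Goblet/Paneth-like, 10.9% of proliferating, 7.41% of EEC-like, 4.05% of tuft-like and 8.12% of enterocyte-like cells. ISC-like and tuft-like cells thus had nearly the same share in both libraries of experiment 2, and enterocyte-like and Goblet/Paneth-like cells had the wider gaps. Tuft-like cells had the lowest share in +EIPA 2, and expression and free RNA cannot be told apart in classes with shares near it. In cluster 16 the share was 43.8% and 63.9% in -EIPA 1 and 2, 57 of 190 cells and 64.3% in +EIPA 1 and 2, 10.0% in -Dox and 28.3% in +Dox. Cells with at least 3 Clu UMIs were rarer: 13 in -EIPA 1 (0.107%), 153 in -EIPA 2 (0.884%), 39 in +EIPA 1 (0.308%), 352 in +EIPA 2 (2.52%) and 59 in +Dox (0.499%). In -Dox there were 0 of 16802, which allows a share of up to 0.0179% when a count of 0 is taken to allow 3 cells, and up to 0.0220% by the exact binomial interval. Of these cells, cluster 16 held 84.6% in -EIPA 1, 69.2% in +EIPA 1, 47.4% in +EIPA 2 and 42.4% in +Dox, but 22.2% in -EIPA 2. The member seen in most cells of every library except -EIPA 2 was Tm4sf4, at 3.81% and 5.67% of thinned cells in -EIPA 1 and 2, 10.3% and 14.4% in +EIPA 1 and 2, 7.17% in -Dox and 19.7% in +Dox. The rarest was Msln in -Dox, at 0.0298% of cells.

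The 10 genes were found in the same cells more often than their separate shares would give. Of the 45 pairs of members, 44 were found together above the product of their shares in each of the 6 libraries, and the exception, Clu with Il1rn, was never seen together in -Dox. With the highest doublet scores left out, 39 of 45 pairs were. No share over other pairs of genes was computed, so these counts have no background beside them. The median ratio of observed to expected cells over the pairs was 21.99 and 9.12 in -EIPA 1 and 2, 8.50 and 5.15 in +EIPA 1 and 2, 23.8 in -Dox and 9.07 in +Dox. The median ratio was thus lowest in the library where most members were most abundant. A pair's ratio cannot exceed the inverse of the larger share of the pair, so commoner genes are held to lower ratios. Ly6d with Msln had the highest ratio in each library, from 14.9 in +EIPA 2 to 227 in -EIPA 1, and Clu with Tm4sf4 the lowest median, 2.13. In -Dox, where Msln was the rarest member, its ratios rest on very few cells. A pair with Msln lies above the product there through a single shared cell, so such pairs add little to the count of pairs. Without cluster 16, 35 of 45 pairs stayed above the product in each library, and all 45 did in +EIPA 1, +EIPA 2 and +Dox. Cells were the unit here and are not replicates, so no p is given.

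**Figure D5:**
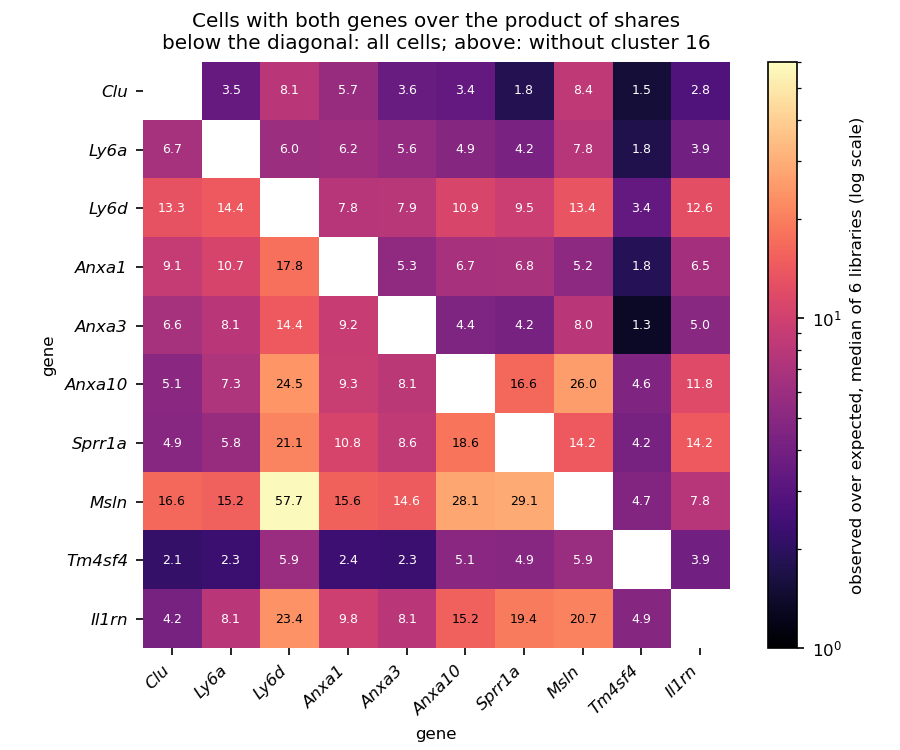
Cells holding UMIs of both genes over the number expected from the product of their shares, as the median over the 6 libraries, for each of the 45 pairs on a log colour scale, with all cells below the diagonal and cluster 16 left out above it. Over all cells the highest value is for Ly6d with Msln (57.7) and the lowest for Clu with Tm4sf4 (2.13).

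Cells with at least 3 of the 10 genes numbered 63 and 182 in -EIPA 1 and 2, 324 and 843 in +EIPA 1 and 2, 54 in -Dox and 289 in +Dox. The products of the shares gave 1.13, 24.0, 39.1, 294, 0.603 and 32.2 cells in the same order. As a share of cells these were 0.520% and 1.05% in -EIPA, 2.56% and 6.04% in +EIPA, 0.321% in -Dox and 2.45% in +Dox, so here the +EIPA and -EIPA libraries did not overlap, unlike for Clu alone. Cells with at least 5 members numbered 22 and 76 in -EIPA, 107 and 387 in +EIPA, 10 in -Dox and 85 in +Dox. Of these 687 cells, 487 (70.9%) were in cluster 16, followed by 67 in Goblet-like cluster 9, 48 in enterocyte-like cluster 10, 30 in enterocyte-like cluster 3 and 17 in Paneth-like cluster 5. Cells with a high doublet score made up 16 of the 22 in -EIPA 1, 38 of the 76 in -EIPA 2, 28 of the 107 in +EIPA 1 and 62 of the 387 in +EIPA 2. They made up 4 of the 10 in -Dox and 20 of the 85 in +Dox, and the part of doublets in these counts was not tested. Inside cluster 16, cells with at least 5 members numbered 274 in +EIPA 2, where the products of the shares within the cluster gave 299, and 76 in +EIPA 1, where they gave 80.3. The counts were 18 against 19.5 in -EIPA 1, 52 against 54.9 in -EIPA 2, 7 against 3.86 in -Dox and 60 against 56.5 in +Dox, so they lay below the products in the 4 WT libraries and above them in both CRISPR libraries. For at least 3 members the counts inside cluster 16 lay below the products in all 6 libraries, as in -Dox (18 against 19.4) and +Dox (118 against 137).

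The genes most like a member across cells were named by Pearson's correlation of log-scaled values within each library, where the member had at least 10 CPM. Only Tm4sf4 reached that level in all 6 libraries. Its most like genes of 6815 compared were Krt20, a keratin of mature villus cells (median r 0.42), Selenop (0.38), Malat1 (0.33), Abhd2 (0.33) and Gch1 (0.33). For Clu, over the 4 libraries in which it reached that level, and chosen after the values were seen, they were Anxa1 (0.35), Anxa3 (0.33), Ly6a (0.30), S100a6 (0.27) and Lgals3 (0.23). The first 3 of these are members. Cells of a library share its depth and its free RNA, so these correlations are descriptions.

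Of the lists of related genes, none had a called gene in the fit without the block, and the counts that follow are from the blocked edgeR fit over all cells, in which 4.47% of all genes tested were called higher. Of 18 other regenerative or fetal-like genes, 14 were tested, 10 were higher and 0 lower, with a median log2 fold change of 0.85 against −0.00 over all genes. Areg, an EGF receptor ligand, stood at 52.7 and 53.1 CPM in -EIPA 1 and 2, 115 and 164 CPM in +EIPA 1 and 2, 78.3 CPM in -Dox and 210 CPM in +Dox, with a log2 fold change of 1.46 (adjusted p = 0.0206). The alarmin Il33 changed by 2.07 (adjusted p = 0.0210), the tissue factor gene F3 by 1.41 (adjusted p = 0.0256), S100a6 by 1.23 (adjusted p = 0.00574) and the protease gene Ctsl by 0.64 (adjusted p = 0.0192). S100a6 overlapped between the groups, at 266 and 908 CPM in -EIPA 1 and 2 and 617 and 1931 CPM in +EIPA 1 and 2. In the edgeR fit without the block S100a6 had a log2 value of 1.21 (SE 0.81, adjusted p = 0.72). Plaur, Cxadr, Krt7 and Tnfrsf12a were among the others called higher, and Itga2, Krt19, Emp1 and Basp1 were tested and not called. In enterocyte-like cells 10 of 13 were higher and 0 lower in the blocked fit, with a median of 0.71 (7.52% of all genes were called higher). In crypt-like cells 5 of 13 were higher and 1 lower, with a median of 0.28 (2.11% of all genes), the lower one being Emp1 at −0.29 (adjusted p = 0.0391).

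The YAP/TEAD targets did not move one way. In crypt-like cells 0 of 11 tested were higher and 1 lower with the block, and in enterocyte-like cells 2 of 10 were higher and 1 lower. Over all cells 4 of 13 tested were higher, namely Ankrd1 (3.77, at less than 1 CPM in every library), Lats2 (1.25), Ajuba (0.66) and Wwc1 (0.48). Ankrd1 had 4 and 8 counts in -EIPA 1 and 2 and 21 and 146 in +EIPA 1 and 2. It passed the low-count filter only through the +EIPA libraries, so no conclusion is drawn from its call. Ccn1, a matricellular protein gene and a classical YAP target, was lower, at 21.5 and 28.2 CPM in -EIPA 1 and 2, 12.2 and 10.1 CPM in +EIPA 1 and 2, 19.9 CPM in -Dox and 13.4 CPM in +Dox. Its log2 fold change was −1.07 (adjusted p = 0.0345), and its groups did not overlap. Of 17 interferon-linked genes tested, 6 were higher and 0 lower: Ifit3 (2.30, at less than 1 CPM in every library), Ifit1 (2.18), Isg15 (1.84), Ifi27 (0.68), Irf7 (0.63) and Bst2 (0.30). Ifit3 (0.120 CPM in -Dox and 0.110 CPM in +Dox) and Isg15 (1.91 and 1.88 CPM) were not higher in +Dox, while Ifit1, Ifi27, Irf7 and Bst2 were. In the classes 7 of 14 were higher in enterocyte-like and 1 of 14 in crypt-like cells, and 0 were lower. The 7 include Ifit3 and Igtp. Over all cells Ifit3 had 17 and 12 counts in -EIPA 1 and 2 and 61 and 75 in +EIPA 1 and 2. Igtp had 33 and 31, then 40 and 48, in the same order. Their counts in the -EIPA libraries were few, so no conclusion is drawn from the calls of these genes. Ifitm3 had a log2 value of −0.01 and stood at 0.489 and 0.466 CPM in -EIPA 1 and +EIPA 1, 9.23 and 8.50 CPM in -EIPA 2 and +EIPA 2, and 149 and 159 CPM in -Dox and +Dox, so its level followed the experiment and the line.

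Relatives of the members moved in part. Of 9 other annexins 4 were higher and 0 lower, namely Anxa8 (2.85), Anxa5 (0.83), Anxa2 (0.70) and Anxa13 (0.37). Of 5 tested Ly6 family genes 2 were higher and 0 lower, Ly6g (3.47) and Ly6g6c (2.08), both under 1 CPM in the WT libraries. Ly6g had 2 and 7 counts in -EIPA 1 and 2 and 20 and 75 in +EIPA 1 and 2. It passed the low-count filter only through the +EIPA libraries, so no conclusion is drawn from its call. Of 5 tested genes of the cornified envelope 3 were higher and 0 lower, Lor (1.43), Sprr2a1 (1.07) and Sprr2a3 (0.96), and reads of the SPRR genes may be split between near-identical copies. Sprr2a3 was lower in +Dox (121 CPM) than in -Dox (163 CPM), while Lor and Sprr2a1 were higher in +Dox. Of 3 tested genes of the interleukin-1 axis other than Il1rn, the cytokine gene Il18 was higher by 1.64 (adjusted p = 0.0110), at 17.4 and 11.05 CPM in -EIPA 1 and 2, 45.4 and 36.7 CPM in +EIPA 1 and 2, 18.2 CPM in -Dox and 42.2 CPM in +Dox. None was lower. These lists were chosen with results of these data known, so their counts are a description.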

How the data were processed

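Single-cell RNA-seq counts of 6 libraries were analysed. The authors aligned reads to the mouse genome (mm10/GRCm38 in the submitters' processing notes) with Cell Ranger 6.1.2 and deposited raw UMI counts per gene and barcode. No cell annotation was used here. Barcodes were kept from 1000 detected genes upwards if mitochondrial UMIs stayed under 20% (57.0% to 84.4% of barcodes, 161670015 to 239368573 UMIs per library). Cells were clustered on variable genes with neighbours balanced over libraries (igraph 0.11.9), and named from marker lists. The members, the other regenerative or fetal-like genes and the YAP/TEAD targets were left out of the variable genes, and the other related lists were not. A neighbour-based doublet score was computed and the highest 10% left out as an alternative. Counts were summed per library and tested in the 4 WT libraries with edgeR 4.0.16 (TMM, filterByExpr, quasi-likelihood F test, Benjamini-Hochberg, 0.05), with DESeq2 1.42.0 as an alternative. The scripts were tested on simulated data. Same-numbered libraries are pairs: the correlation of their deviations from the group means was 0.690 over all cells, 0.535 in enterocyte-like and 0.743 in crypt-like cells, and the study's data tables treat the numbers as experiments. The blocked fit was therefore given beside each result whose call it changed. The Dox contrast has 1 library per group and no test. Counts and shares carry 95% exact Poisson or binomial intervals, which cover counting error only. The members and lists were chosen with earlier results of these data known. Named genes were all members, list genes called in either edgeR fit and up to 4 others of largest change per list. Cyr61, Ctgf, Il36a and Il36g matched no feature symbol. The level of the targeted gene and the values of 1 gene of the related lists are not reported here.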

Additional observations from a re-analysis of the deposited data

Results flagged for a closer look

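In cluster 16, 6 members moved in opposite directions in the 2 EIPA experiments, with counting intervals on either side of 1. All 6 were lower in experiment 1 and higher in experiment 2, as were 0.822% of 12529 genes. That share includes genes of low counts, whose counting intervals are wide, so it is not a like background for the members. The fold of +EIPA over -EIPA was 0.403 in experiment 1 and 1.07 in experiment 2 for Clu, 0.738 and 1.56 for Ly6a, and 0.660 and 1.24 for Ly6d. It was 0.776 and 1.63 for Sprr1a, 0.470 and 1.20 for Msln, and 0.798 and 1.54 for Il1rn. The difference between the experiments was not tested, and the cluster holds 32 cells in -EIPA 1, 21 of them with a high doublet score, and 83 in -EIPA 2, 38 of them with one.

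The members were also higher with EIPA in the barcodes left out of every comparison, those outside the limits on genes and mitochondrial UMIs (4744 to 9494 barcodes per WT library). All 10 were higher in both experiments there, as were 13.6% of 12453 genes. The smaller of the 2 EIPA folds there was 1.84 for Clu, 2.21 for Ly6a, 5.47 for Ly6d, 2.79 for Anxa1 and 2.05 for Anxa3. It was 3.77 for Anxa10, 5.85 for Sprr1a, 3.75 for Msln, 5.46 for Tm4sf4 and 4.95 for Il1rn. Clu stood at 3.15 and 26.4 CPM in the left-out barcodes of -EIPA 1 and 2, and at 10.5 and 48.7 CPM in those of +EIPA 1 and 2. These values have no test.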

How the results depend on the processing

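The calls depended on the pairing. Over all cells the fit without the block called 0 genes and 0 members. It called 839 genes and 10 members with the replicate block, 968 and 10 with the block and the highest doublet scores left out, and 1651 and 10 with the block and library size. The block without cluster 16 called 328 genes and 9 members, DESeq2 614 and 5, and edgeR without a filter on low counts 198 and 4. In enterocyte-like cells, where 0 were called, the values were 1344 genes and 10 members with the block, 1793 and 10 with the block and doublets left out, 1532 and 10 with the block and library size, 583 and 5 with DESeq2, 1307 and 10 without the filter, and 122 and 4 with neighbours not balanced over libraries. In crypt-like cells, from 0, they were 469 and 9, 836 and 10, 1062 and 10, 111 and 2 (DESeq2), and 71 and 2 (no filter). The cause of these differences was not tested. With 1 library left out, the genes called ranged from 0 to 137 and the members from 0 to 1 over all cells, the 137 without -EIPA 1. In enterocyte-like cells they ranged from 0 to 895 genes and 0 to 5 members, 895 and 5 without -EIPA 1, 63 and 5 without +EIPA 1. In crypt-like cells they stayed at 0. In enterocyte-like cells 13251 genes were tested without -EIPA 1 and 13140 without +EIPA 1, so the same 5 members stand beside unlike backgrounds. Every fit with 1 library left out keeps only 1 library in a group, so no conclusion is drawn from the genes and members it called.

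The members' log2 changes were positive in 280 of 280 values under the other alternatives and in 115 of 120 with a library left out. The 5 exceptions were Clu and Anxa1. All these values are refits of the same 4 libraries over overlapping sets of cells, so they are not separate observations. No share over all genes was computed beside these counts, and the members were chosen with earlier results of these data known. Without +EIPA 2, Clu changed by −0.60 over all cells, −0.46 in enterocyte-like and −1.21 in crypt-like cells, and Anxa1 by −0.55 in crypt-like cells. Without -EIPA 1, Clu changed by −0.23 in crypt-like cells. With 1 library left out, Clu ranged from −0.60 to 3.69, −0.46 to 4.70 and −1.21 to 3.61 in the same cells, and Anxa1 from 0.23 to 3.91, 0.0049 to 3.79 and −0.55 to 3.54. Over all cells Ly6a ranged from 1.48 to 2.82, Ly6d from 1.46 to 3.47, Anxa3 from 1.11 to 2.34, Msln from 1.45 to 2.99, and Ly6a in enterocyte-like cells from 0.55 to 2.94. In enterocyte-like cells Anxa3 ranged from 0.849 to 1.965 and Ly6d from 2.246 to 4.276. The mean over the 2 experiments of the ratio of Clu-positive shares stayed between 2.31 and 2.86 over thinning depths, limits on cells, doublets, cluster 16 left out and at least 3 UMIs, while the ratio in experiment 2 alone ran from 1.46 to 2.85. All 10 members stayed higher in +Dox under each alternative, and the pairs found together in every library numbered 35 to 45. The choices that left out cluster 16 or joined the block with another choice were made after the data were seen.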
